A study of Bos taurus with 36 samples.

Results

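Gene expression in the 4× glands of 6 multiparous Holstein cows was compared between day 21 of lactation, the last day of frequent milking, and day 23, when these glands had returned to 2× milking. Arrays were chosen by their labels alone: 6 arrays of day 21 and 6 of day 23, 1 of each day from every cow, make up 12 of the 36 arrays of the study, and all 24016 probe sets other than array controls were tested. In every cow the right side of the udder was milked 4× and the left side 2× through day 21, and both sides were milked 2× afterwards. A rear gland was biopsied on day 21 and a fore gland on day 23, so gland position, day of lactation and the end of 4× milking changed together and cannot be told apart within the 4× glands. The 2× glands of the same cows, biopsied at the same times and positions, were never milked 4×, and their 12 arrays of days 21 and 23 gave the values set side by side with those of the 4× glands. A rear gland was biopsied again on day 40, and those 4× levels are given only as a description. All groups came from the same sedated, lactating cows, every cow carried both milking frequencies, and no cow was milked 2× on both sides throughout.

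Milk is made by the secretory epithelium of the alveoli, which contractile myoepithelial cells and a stroma of fibroblasts, vessels and immune cells surround. Removal of milk acts within each gland, so that a gland milked more often than its neighbor yields more. When milk stays longer in the alveoli, the epithelium is stretched and exposed to its own secretion, and prolonged stasis starts involution, in which STAT3 signaling, lactoferrin, acute phase proteins, clusterin and remodeling of the matrix are induced.

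The unit throughout is the log2 signal of a probe set, so a change of 1 is a doubling, and a change is the day 23 value minus the day 21 value of the same cow. Levels are compared between days for a single probe set, not between genes. Defining markers of the labeled tissue were detected: the 6 markers of the secretory epithelium, the milk protein genes CSN2 and LALBA among them, averaged 14.1 to 14.2 in every 4× gland on both days, against array medians of 6.06 to 6.15. The 6 erythroid markers averaged 4.17 to 4.57, below those medians. These averages tell only whether a signal lay above the bulk of the array, not how abundant one transcript was against another. The p-values rest on the spread between these 6 cows, which limma moderated toward a spread shared by all probe sets. Each biopsy was a mixture of cells, so fewer cells of a type and less RNA per cell cannot be told apart. Cow 3 stood apart from the other cows: its change over all probe sets had a median correlation of -0.12 with theirs, while for the other cows this median lay between 0.10 and 0.20, and its day 23 array had the lowest median correlation with the other 11 arrays (0.984, against up to 0.9905). Counts of list members without this cow are therefore given wherever leaving it out moved them by 2 or more genes. Without cow 3, 3.01% of all probe sets were higher and 2.04% lower at an unadjusted p under 0.01 (limma). The lists hold 1 probe set per gene, and the shares on that base were not computed without cow 3.

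The change from day 21 to day 23 was small for most genes. At an adjusted p under 0.05 (limma, Benjamini-Hochberg), 7 probe sets rose (0.0291% of the 24016 tested) and 1 fell (0.00416%). At an unadjusted p under 0.01, 328 were higher (1.37%) and 370 lower (1.54%) on day 23. The median size of the change, regardless of sign, was 0.06, and only 2 probe sets, those of CHI3L1 and SAA3, changed by at least 1 in size. The 8 probe sets that passed carried the genes for lactoferrin, thrombospondin-1, S100A11, carbonic anhydrase VIII and the glutamate transporter SLC1A1, together with 2 sequences that have no symbol in the annotation. All 8 moved in the same direction in 6 of 6 cows, and all 8 had the same adjusted p of 0.0344 by limma. The count depended on the cows and on the model: 0 passed without cow 1, 4, 5 or 6, 5 rose and 0 fell without cow 2, and 152 rose and 73 fell without cow 3. As each of the 8 moved the same way in 6 of 6 cows, leaving out 1 cow could not change its sign. None passed when the 2 glands of a cow were not paired, and none passed in 3 fits that kept the cow in the model: with cow as a random block at its estimated correlation (limma adjusted p of the 8 from 0.1523 to 0.3739), with all 36 arrays (0.08844 to 0.9995) and without moderation (0.5282 to 0.5781).

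**Figure D1:**
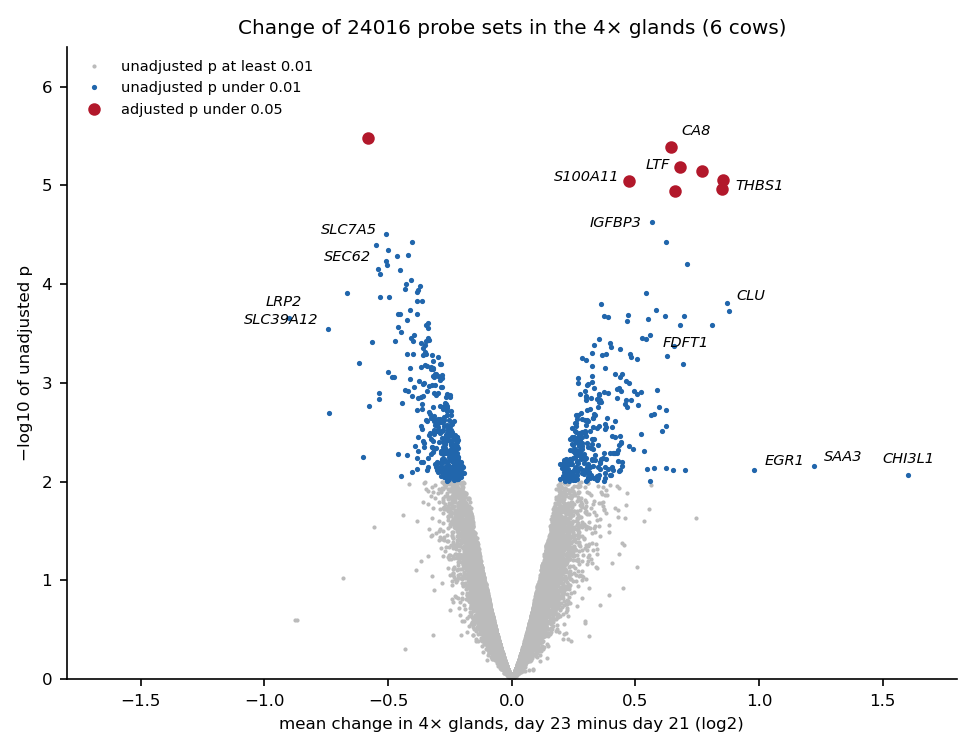
Mean change of each of the 24016 probe sets from day 21 to day 23 in the 4× glands (log2, horizontal axis) against the −log10 of its unadjusted p (vertical axis), 6 cows. Red points are the 8 probe sets past an adjusted p of 0.05, blue points the others with an unadjusted p under 0.01; CHI3L1 and SAA3 lie farthest to the right at a modest p.

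LTF encodes lactoferrin, the iron-binding antimicrobial protein of milk that accumulates when the gland is not emptied. Its lowest, median and highest levels were 10.87, 11.69 and 12.48 on day 21 and 11.35, 12.42 and 13.16 on day 23. It rose by 0.68 (SE 0.09), or 1.60-fold, in 6 of 6 cows (limma adjusted p = 0.0344), although the cows differed so much in level that the 2 days overlapped. The change ranged from 0.33 in cow 2 to 1.12 in cow 1. The mean level on day 40 was 12.17, between those of the other days. The array carried 2 probe sets annotated to LTF. These values are those of the brighter one, and the other is not given here.

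THBS1 encodes thrombospondin-1, a matricellular protein that activates TGF-beta and restrains vessel growth. On the brighter of its 2 probe sets that passed, the level on day 21 ran from 7.17 through a median of 7.72 to 8.70, and on day 23 from 8.14 through 8.77 to 9.07. The change was 0.86 (SE 0.12) on this probe set and 0.77 (SE 0.11) on the other, and both were higher in 6 of 6 cows. The 6 probe sets annotated to THBS1 disagreed: the remaining 4 had changes of 0.12, -0.05, 0.02 and -0.01, and the probe set with a change of 0.02 was the brightest of all, with a mean level of 10.42 on day 21. The rise therefore holds for 2 of the 6 sequences that stand for this gene on the array.

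S100A11 is a small calcium-binding protein of epithelial cells. In the 4× glands it ranged from 10.76 to 11.18 on day 21, with a median of 11.04, and from 11.11 to 11.88 on day 23, with a median of 11.49. It rose by 0.48 (SE 0.07), or 1.39-fold, with little overlap between the days, and its mean on day 40 was 11.35. CA8, a carbonic anhydrase relative that lacks the catalytic activity and binds the inositol trisphosphate receptor, went from 5.76, 6.06 and 6.79 (lowest, median, highest) to 6.18, 6.74 and 7.74. The rise of 0.65 (SE 0.08) was 1.56-fold, and a second probe set of CA8, at a dimmer mean level of 4.8, was higher by 0.50 with an unadjusted p of 0.0005776.

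SLC1A1 is a high-affinity transporter of glutamate and aspartate at the cell surface. The probe set was named after the study's table, since the annotation gives it no symbol. Its levels were 6.75, 7.41 and 7.85 on day 21 and 7.55, 7.99 and 8.44 on day 23, a rise of 0.66 (SE 0.10) in 6 of 6 cows. The probe set that the annotation does assign to SLC1A1 was higher by 0.40 (SE 0.13) in 5 of 6 cows, with an unadjusted p of 0.01095. Of the 2 probe sets without a symbol, one rose by 0.85 (SE 0.12), from a median of 5.45 to 6.15, and the other fell by 0.58 (SE 0.07), from 8.09 to 7.39. The latter was the only probe set that fell at this threshold.

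**Figure D2:**
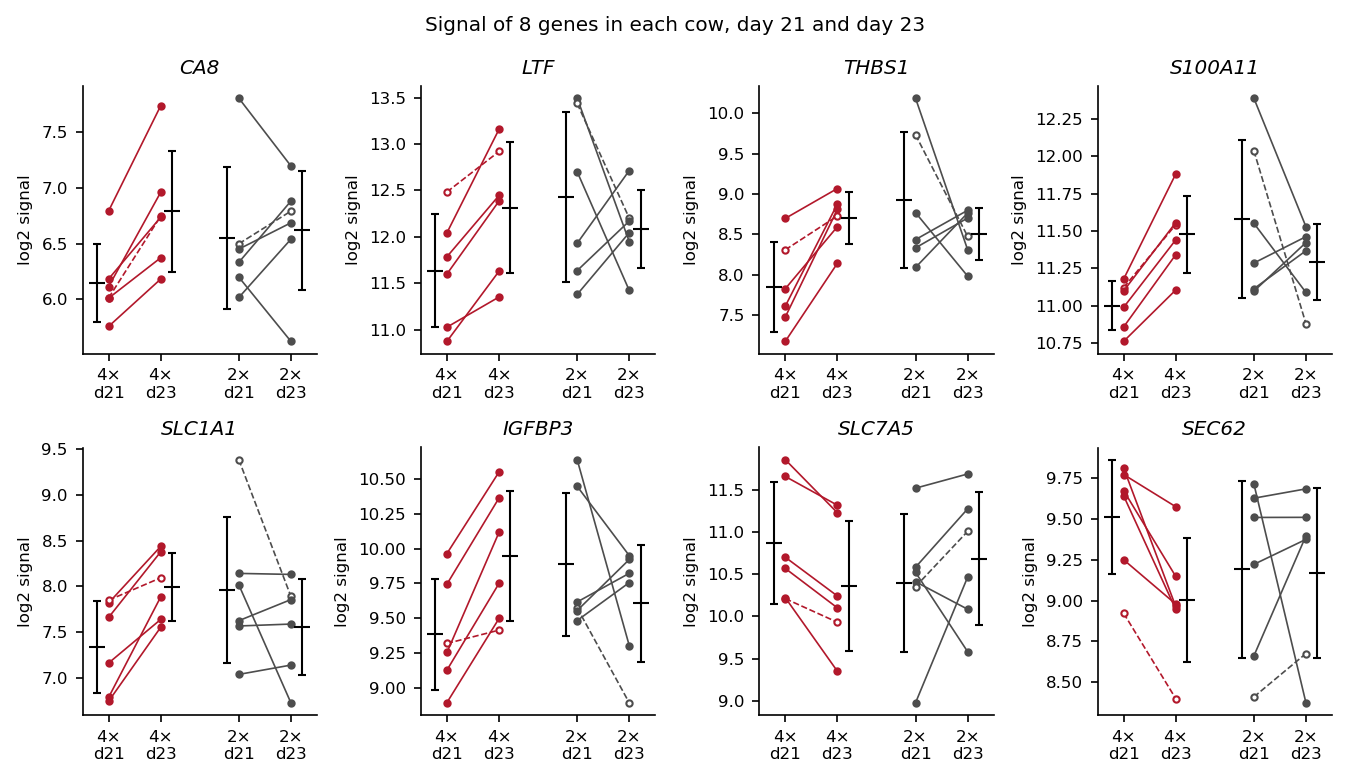
Log2 signal of 8 genes in each of the 6 cows on days 21 (d21) and 23 (d23), 4× glands in red and 2× glands in gray, with lines joining the glands of a cow and bars giving the mean ± SD. Cow 3 is drawn with open circles and dashed lines. THBS1 is shown by the probe set with the change of 0.86; IGFBP3, SLC7A5 and SEC62 did not pass the adjusted threshold.

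Among genes of the acute phase and antimicrobial response, LTF rose and 3 others were higher by the unadjusted test. Of the 17 measured, 14 had a positive change, 4 were higher at an unadjusted p under 0.01 and 0 were lower. With 1 probe set per gene symbol, the shares among all 9155 genes were 1.81% higher and 1.34% lower, and 4708 had a positive change. Each list count below is to be read beside these shares. The median change of the list was 0.16, against 0.0032 over the 9155 genes. Besides LTF, the genes past this threshold were CHI3L1, SAA3 and DEFB4A. CHI3L1 encodes a chitinase-like glycoprotein that is secreted during involution and inflammation, and SAA3 is the serum amyloid A made in the mammary gland.

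CHI3L1 had the largest change of all probe sets. Its lowest, median and highest levels were 5.60, 6.44 and 10.46 on day 21, and 7.78, 8.23 and 11.71 on day 23. The change was 1.60 (SE 0.52), or 3.04-fold, with an unadjusted p of 0.008622 and a limma adjusted p of 0.322. It was at least 1.46 in each of 5 cows and -2.23 in cow 3, the cow with the highest level on day 21. Without cow 3 the change was 2.37, with a limma adjusted p of 0.0007799.

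SAA3 also differed between cow 3 and the others. It spanned 7.83, 8.63 and 11.56 on day 21 and 8.61, 9.89 and 13.19 on day 23. The difference of 1.22 (SE 0.38) came with an unadjusted p of 0.006894, was positive in 5 of 6 cows and was -1.04 in cow 3. DEFB4A, a beta-defensin, was 0.65 (SE 0.21) higher at levels near the background, with a median of 4.85 on day 21, and here cow 3 had the largest difference, 1.99; without cow 3 the difference was 0.38. Haptoglobin (HP), a blood-borne acute phase protein, had a change of -0.20, and LBP, which binds bacterial lipopolysaccharide, of 0.02. The list thus held genes at both ends of the range.

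Among 16 genes of the complement system, 13 had positive changes, 3 passed an unadjusted p of 0.01 upwards and 0 downwards, and the median was 0.07. The shares over all 9155 genes were 1.81% upwards and 1.34% downwards. C3, the central component, had levels of 11.73, 12.46 and 12.99 on day 21 and 12.29, 12.87 and 13.20 on day 23. It was 0.35 (SE 0.09) higher in 6 of 6 cows (unadjusted p = 0.001502), and its other 2 probe sets were higher by 0.43 and 0.44. Factor B (CFB), the protease of the alternative pathway, was 0.41 (SE 0.13) higher, and CFI, the protease that inactivates C3b, was 0.70 (SE 0.22) higher, each in 5 of 6 cows. C4BPA, which binds C4b and limits the classical pathway, had a change of 0.74 (SE 0.29) with an unadjusted p of 0.02325. The 3 chains of C1q differed little, from 0.01 to 0.05.

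Clusterin (CLU), an extracellular chaperone whose induction marks the involuting gland, had the lowest p among 14 genes of involution and STAT3 signaling. Its levels were 9.35, 9.82 and 11.11 on day 21 and 10.00, 10.84 and 12.06 on day 23. The change of 0.87 (SE 0.16) had a limma adjusted p of 0.1061. The change was -0.12 in cow 3 and 0.65 to 1.72 in the other cows. No other gene of this list passed an unadjusted p of 0.01: STAT3 had a change of 0.11, CEBPD, its target, of 0.10, SGK1 of 0.10, and the lysosomal proteases CTSB and CTSL had changes of 0.15 and -0.17. The median over the list was 0.10. Of 11 genes of cell survival and apoptosis, 0 passed, with changes from -0.06 to 0.22.

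Immune cell markers were read beside these genes. The 4 neutrophil markers all had positive changes with a median of 0.24, and their mean level ran from 5.40 to 5.77 on day 21 and from 5.47 to 6.45 on day 23; 0 passed an unadjusted p of 0.01, and S100A8 and S100A12, calgranulins of neutrophils, were higher by 0.45 and 0.56. Cow 1, with the largest increases of CHI3L1 and SAA3, also had the largest mean change of the neutrophil markers, 0.88, whereas the other cows had 0.04 to 0.42. Among 8 macrophage markers, 1 passed: CD68, a lysosomal membrane protein, was 0.40 (SE 0.09) higher. It ran from 6.30 to 6.56 on day 21 and from 6.57 through 6.81 to 7.16 (lowest, median, highest) on day 23. Its days did not overlap, but how many of all probe sets were separated in this way was not counted. The mean levels of the macrophage list overlapped, from 7.62 to 7.87 on day 21 and from 7.56 to 8.06 on day 23. GPNMB, a glycoprotein of phagocytes, was higher by 0.88 (SE 0.17) on 1 probe set and by 0.23 and 0.07 on its other 2. Markers of T and NK cells (0 of 11) and of B and plasma cells (0 of 7) did not pass. The part that immune cells had in the acute phase and complement values was not tested.

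Of 21 collagen and matrix genes, 18 had positive changes and 4 were higher at an unadjusted p under 0.01, with a median of 0.15. COL3A1, which encodes the chain of type III collagen, had levels of 10.23, 10.55 and 10.88 on day 21 and 10.39, 11.09 and 11.60 on day 23, a difference of 0.52 (SE 0.13; unadjusted p = 0.001228). COL1A2 was higher by 0.46 (SE 0.12) and COL1A1 by 0.35 (SE 0.09), the chains of type I collagen. The remaining gene, COL6A1, named after its value was seen, was higher by 0.33 (SE 0.10). For COL1A1, COL1A2 and COL3A1 the levels of the 2 days overlapped.

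The 3 collagen genes COL1A1, COL1A2 and COL3A1 are also the fibroblast markers that passed, 3 of 9, with a median of 0.25 for the list. The mean level of the fibroblast markers was 8.04 to 8.46 on day 21 and 8.19 to 8.84 on day 23, and it was higher in 5 of 6 cows. PDGFRA and PDGFRB, receptors that define fibroblasts and pericytes, had changes of -0.09 and 0.01. FBLN1, which encodes the matrix protein fibulin-1, was 0.47 (SE 0.09) higher on 1 probe set and 0.25 on the other, and CTSK, a collagen-degrading protease, was 0.37 (SE 0.07) higher in 6 of 6 cows. Of 14 metalloproteinases and inhibitors, 1 passed: PLAU, the urokinase that activates plasminogen in milk, was 0.29 (SE 0.08) higher. Without cow 3, 5 of the 14 were higher.

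Contractile proteins of myoepithelium and smooth muscle gave 2 of 9 markers past an unadjusted p of 0.01, with a median of 0.20. TAGLN, an actin-binding protein, had levels of 9.06, 9.77 and 10.21 on day 21 and 9.88, 10.13 and 10.98 on day 23. Its change was 0.50 (SE 0.12), and that of ACTA2, smooth muscle actin, 0.43 (SE 0.13), each in 5 of 6 cows. MYLK, which phosphorylates myosin, had a change of 0.24 and the oxytocin receptor OXTR of -0.08. The mean over the 9 markers ran from 8.34 to 9.06 on day 21 and from 8.74 to 9.33 on day 23, and its change was negative in cow 3 alone, with -0.20. Whether a different share of stroma or of myoepithelium in the fore gland biopsies took part in the matrix values was not tested. Without cow 3, 4 of the 9 myoepithelial markers and 6 of the 9 fibroblast markers were higher at an unadjusted p under 0.01. The endothelial markers had 0 of 10 past the threshold and a median of 0.01 in 6 cows, and 3 of 10 higher with a median of 0.12 without cow 3.

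Of 8 mechanosensitive matricellular genes, which respond to stretch and to actin tension, CCN1 and CCN2 passed. CCN1 had levels of 5.79, 6.92 and 7.81 on day 21 and of 7.35, 7.71 and 8.08 on day 23. It was 0.69 (SE 0.15) higher in 6 of 6 cows (unadjusted p = 0.0006379), and CCN2 was 0.62 (SE 0.17) higher in 5. For both genes the lowest level of day 23 exceeded the lowest of day 21 by more than 1, and the highest levels lay close together. SPP1, the milk protein osteopontin, was lower by 0.19 in 6 of 6 cows (unadjusted p = 0.04493). In this list THBS1 counted by its brightest probe set, with a change of 0.02.

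Immediate-early transcription factors, which respond within minutes to growth factors and stretch, had 2 of 19 members past the threshold and a median of 0.04. EGR1 went from 7.23, 7.93 and 8.97 to 8.14, 8.99 and 9.92. Its change of 0.98 (SE 0.31) was positive in 5 of 6 cows and -0.83 in cow 3, and its other probe set had -0.06. DUSP1, a phosphatase that switches off MAP kinases, was 0.29 (SE 0.09) higher. FOS had a change of 0.14, on another probe set than that of the study's table, FOSB of 0.01 and MYC of 0.10, and none of them passed. JUN, which did not pass either, had 0.14 on the brightest of its 5 probe sets. In the fit without cow 3, 2 dimmer probe sets of JUN were higher, by 0.57 (limma adjusted p = 0.002758) and 0.48 (0.01095).

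**Figure D3:**
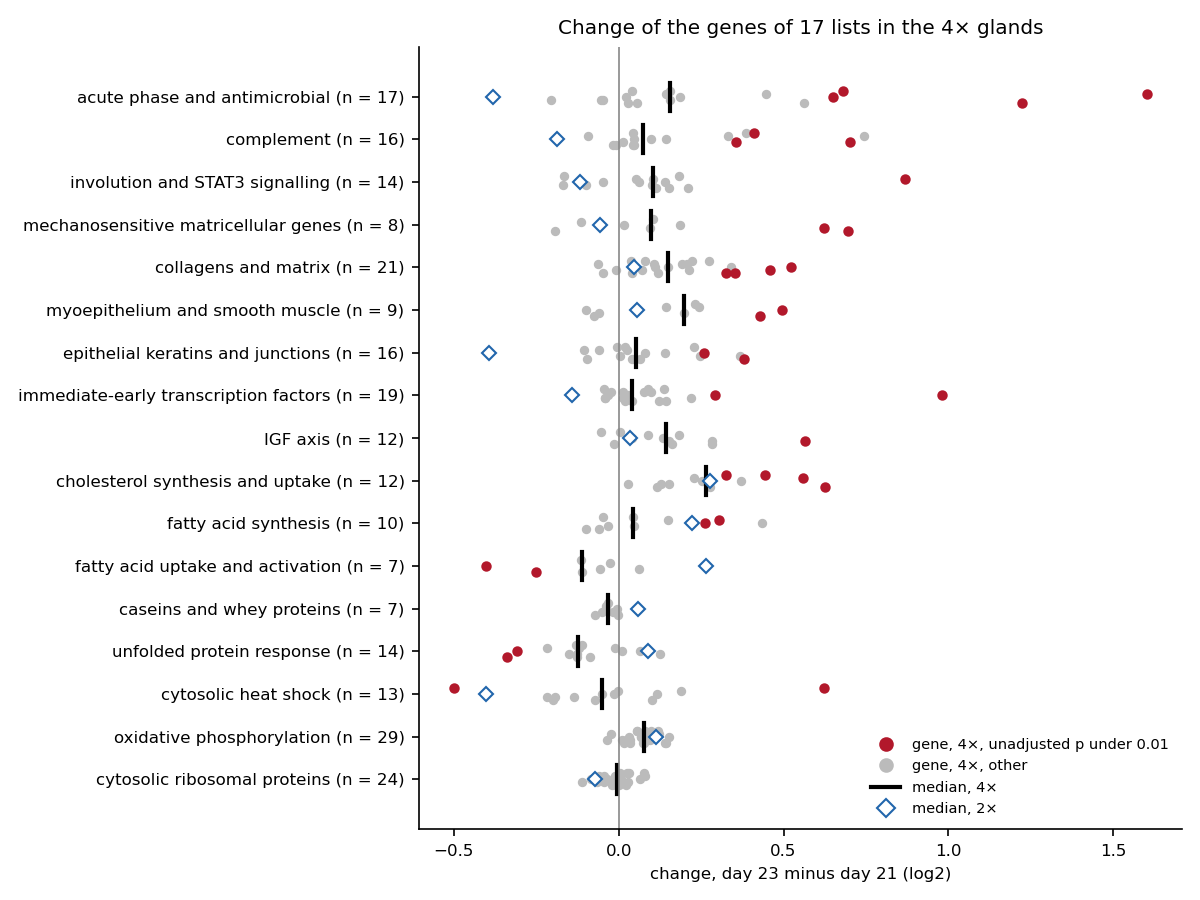
Change from day 21 to day 23 (log2, horizontal axis) of the genes of 17 lists in the 4× glands, 1 point for each gene as the mean of 6 cows, n being the genes measured. Red points had an unadjusted p under 0.01, black bars are list medians in the 4× glands and open blue diamonds list medians in the 2× glands. Red points lie to the right for acute phase, complement, matrix and cholesterol genes and to the left for fatty acid uptake and the unfolded protein response.

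Among epithelial genes, 12 of 16 keratins and junction genes had positive changes, and the milk protein genes stayed within a narrow range. KRT5, the keratin of basal cells, had levels of 10.71, 11.32 and 11.60 on day 21 and 11.29, 11.53 and 12.09 on day 23, a difference of 0.38 (SE 0.08) in 6 of 6 cows. KRT8, a luminal keratin, was 0.26 (SE 0.07) higher on a dim probe set and 0.40 (SE 0.13) higher on the brighter one listed by the study. These were the 2 of 16 genes of keratins and junctions that passed, and the median of the list was 0.05. KRT14 had a change of -0.06, and the tight junction genes CLDN3 and CLDN4 of -0.11 and 0.02. LGALS3, a galectin of epithelium and macrophages, was 0.58 (SE 0.11) higher in 6 of 6 cows, and GSN, which severs actin filaments, was 0.54 (SE 0.10) higher in 5.

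All 7 genes of caseins and whey proteins had negative changes, none larger than 0.07 in size, and 0 passed. Their mean level was 14.22 to 14.32 on day 21 and 14.19 to 14.31 on day 23, so the days could not be separated. These levels lay far above the array medians of 6.06 to 6.15, and whether the array could show a change at such levels was not tested. ELF5, the transcription factor of alveolar cells, had a change of -0.08. PRLR, the prolactin receptor, was 0.30 (SE 0.10) higher in 5 of 6 cows, the only 1 of 7 genes of prolactin and growth hormone signaling to pass.

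IGFBP3, the main binding protein of insulin-like growth factors, came closest to the adjusted threshold among the genes that did not pass. Its levels were 8.89, 9.29 and 9.96 on day 21 and 9.41, 9.93 and 10.55 on day 23. The difference was 0.57 (SE 0.09) in 6 of 6 cows, with a limma adjusted p of 0.06296, and a second probe set was higher by 0.46. It was the only 1 of 12 genes of the IGF axis to pass an unadjusted p of 0.01. IGF2 was higher by 0.28 (unadjusted p = 0.01814), IGF1 had a change of -0.015 and the receptor IGF1R of 0.04. The list median was 0.14.

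All 12 measured genes of cholesterol synthesis and uptake had positive changes, 4 of them with an unadjusted p under 0.01, and the median was 0.26. HMGCS1, which makes the precursor of mevalonate, spanned 8.89, 9.24 and 9.62 on day 21 and 9.32, 9.79 and 10.86 on day 23, and was 0.63 (SE 0.14) higher. FDFT1, the squalene synthase, was 0.56 (SE 0.12) higher, and NSDHL, a sterol dehydrogenase, 0.44 (SE 0.13). FDPS, which makes farnesyl pyrophosphate and was named after its value was seen, was 0.33 (SE 0.10) higher. The mean change of the list was positive in each cow, from 0.04 in cow 4 to 0.62 in cow 3. Without cow 3, 11 of the 12 changes were positive, with a median of 0.19. With the mean of all probe sets of a gene, 11 were positive and 1 negative. In the 2× glands the same 12 genes were also all positive, with a median of 0.28.

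Fatty acid synthesis gave 2 of 10 genes past the threshold, ACSS2, which activates acetate, with 0.30 (SE 0.10), and ACLY, which makes cytosolic acetyl-CoA from citrate, with 0.26 (SE 0.07). FASN and ACACA, the synthase and its rate-limiting carboxylase, had changes of -0.03 and -0.10. Of 7 genes of fatty acid uptake and activation, the 2 that passed were both lower, and without cow 3 none passed. LPL, the lipase that releases fatty acids from plasma lipoproteins, had levels of 12.38, 12.83 and 13.08 on day 21 and 12.32, 12.57 and 12.74 on day 23, and was lower by 0.25 (SE 0.08) in 5 of 6 cows. For VLDLR, the receptor beside it, the change was -0.40 (SE 0.13). The list median was -0.11, and the mean change of its genes was negative in 6 of 6 cows, largest in size in cow 3 (-0.27). Without cow 3 the median was -0.08 and 2 of the 7 changes were positive. Of 11 genes of triglyceride synthesis and the fat globule, 0 passed.

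A few genes of transport and secretion were lower on day 23, while the members of their lists went both ways. SLC7A5, which imports leucine and other large neutral amino acids, ranged from 10.21 through 10.63 to 11.86 on day 21 and from 9.35 through 10.17 to 11.32 on day 23. It was lower by 0.51 (SE 0.08) in 6 of 6 cows, with a limma adjusted p of 0.07412. Its partner chain SLC3A2 had a change of 0.05, and SLC7A5 was the only 1 of 11 transporters past an unadjusted p of 0.01. Of the 11, 5 had positive and 6 negative changes, with a median of -0.04. SEC62, a subunit of the channel that takes proteins into the endoplasmic reticulum, went from 8.92, 9.66 and 9.81 to 8.40, 8.97 and 9.57. It was lower by 0.51 (SE 0.09), and its brighter probe set by 0.35, in both cases with an unadjusted p under 0.01. RAB6A, a GTPase of Golgi traffic, was lower by 0.23 (SE 0.08), the only 1 of 19 genes of exocytosis to pass. Of the 19, 9 had positive and 10 negative changes, with a median of -0.005.

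Of 14 genes of the unfolded protein response, 11 had negative changes, with a median of -0.12, and the 2 that passed an unadjusted p of 0.01 were both lower. HSPA5, the chaperone BiP, had levels of 10.65, 10.90 and 11.20 on day 21 and of 10.36, 10.54 and 10.85 on day 23. It was lower by 0.34 (SE 0.10), although its other bright probe set had a change of -0.14 (unadjusted p = 0.2379). DNAJB9, its cochaperone, was lower by 0.31 (SE 0.10) in 6 of 6 cows. In the cytosol, HSPH1, an HSP70 nucleotide exchange factor, was lower by 0.50 (SE 0.11), whereas CRYAB, a small heat shock protein of myoepithelium and muscle, was higher by 0.62 (SE 0.10) in 6 of 6 cows. These were the 2 of 13 cytosolic heat shock genes that passed, in opposite directions.

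Other genes lower in 6 of 6 cows had varied roles. CRY1, a repressor of the circadian clock, had levels of 7.30, 7.98 and 8.48 on day 21 and 6.69, 7.33 and 7.96 on day 23, and was lower by 0.53 (SE 0.09; unadjusted p = 7.831e-05). HLF, a clock-controlled transcription factor, was lower by 0.29 (SE 0.07), and these were 2 of 7 clock genes measured. MSTN, which encodes myostatin, was lower by 0.66 (SE 0.12) on 1 probe set and 0.24 on the other. LRP2, the multiligand receptor megalin, named after the study's table, went from 5.31, 6.58 and 7.65 to 4.34, 5.87 and 6.73, the largest decrease of all probe sets at 0.90 (SE 0.18). SLC39A12, a zinc importer, was lower by 0.74 (SE 0.15), with levels that ran from 4.01 to 8.82 between cows on day 21.

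TLR2, the receptor for bacterial lipoproteins, had levels of 8.95, 9.45 and 9.96 on day 21 and 8.56, 9.18 and 9.48 on day 23. It was lower by 0.38 (SE 0.07) in 6 of 6 cows (unadjusted p = 0.0001489). RSAD2, the antiviral protein viperin, was lower by 0.45 (SE 0.09), the only 1 of 15 interferon response genes to pass. The median of that list was -0.03. GJB2, a gap junction protein, was lower by 0.50 (SE 0.09), UGCG, which makes glucosylceramide, by 0.40 (SE 0.07), and XPO4, a nuclear exporter, by 0.50 (SE 0.08).

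The remaining lists showed few members past an unadjusted p of 0.01. Over all 9155 genes, 1.81% were higher and 1.34% lower at that threshold. Glucose uptake and lactose synthesis had 1 of 8, HK1, the first enzyme of glycolysis, higher by 0.34 (SE 0.09). Oxidative stress defense had 1 of 14, GPX1, a glutathione peroxidase, higher by 0.26 (SE 0.07). The cell cycle had 1 of 23, TYMS, which makes thymidylate, higher by 0.28 (SE 0.06). TYMS levels were at most 5.32 on day 21 and at least 5.37 on day 23, and such separation was not counted over all probe sets. Of the 23, 20 had positive changes, with a median of 0.06. Adipocyte markers had 1 of 8, ADIPOQ, which encodes adiponectin, higher by 0.22 (SE 0.07) at a median level of 4.68 on day 21. Glucocorticoid-responsive genes had 1 of 7, the DUSP1 already described.

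No member passed among 11 genes of mTORC1 and energy sensing, 9 of serotonin and calcium feedback, 11 of antigen presentation, 15 chemokines and cytokines, 15 of TGF-beta signaling, 6 luminal progenitor regulators, 24 ribosomal proteins, 29 of oxidative phosphorylation or 24 of the proteasome. The changes of the 15 chemokines and cytokines lay between -0.25 and 0.12, with IL1B and CXCL8 at 0.00. Genes of oxidative phosphorylation were positive in 27 of 29, with a median of 0.08, but the mean over the list was positive in only 3 of 6 cows. Markers of skeletal muscle (7) and skin (2) also gave 0.

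The 2× glands, with the same change of gland position and day, moved more and less evenly. Their changes had a median size of 0.10 and a median SD over cows of 0.27, against 0.06 and 0.18 in the 4× glands, and 36 probe sets changed by at least 1. By limma, 0 probe sets passed an adjusted p of 0.05 (smallest 0.6346), and 1385 had an unadjusted p under 0.05. At an unadjusted p under 0.01, 58 were higher (0.242%) and 110 lower (0.458%). The 4× and 2× contrasts share no array, but they share cows, days and gland positions. Of the 328 probe sets higher in the 4× glands, 158 were higher and 170 lower in the 2× glands, and of the 370 lower ones, 201 were lower and 169 higher. The sign was the same for 51.4% of these 698 and for 49.9% of all probe sets. In both, 16 passed with the same sign and 3 with opposite signs. The 16 were 2.29% of those in the 4× glands and 9.52% of the 168 in the 2× glands. Over all probe sets, 0.242% were higher and 0.458% lower in the 2× glands, and 1.37% and 1.54% in the 4× glands.

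The difference between the 4× and the 2× change was tested on 1 value per cow. By limma, 0 probe sets passed an adjusted p of 0.05 (smallest 0.5633), while 2093 had an unadjusted p under 0.05. At an unadjusted p under 0.01, 254 differences were positive (1.06%) and 130 negative (0.541%). For the probe sets that passed in the 4× glands, the 2× change was -0.35 for LTF, -0.42 and -0.29 for THBS1, -0.29 for S100A11, -0.41 for SLC1A1 and 0.07 for CA8, and none of these differences passed after adjustment. The unadjusted p of the difference was 0.0002396 for the dimmer THBS1 probe set that rose, 0.001304 for SLC1A1, 0.004296 for S100A11, 0.01236 for CA8 and 0.0182 for LTF. The probe set without a symbol that rose by 0.85 was also higher in the 2× glands, by 0.72 (SE 0.16) in 6 of 6 cows, and the difference between the sides was 0.12 (SE 0.15). The smallest p of a difference among the genes named here was that of EGR1 (5.225e-05), with 0.98 in the 4× and -0.87 in the 2× glands.

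List medians in the 2× glands are given for the same reason. They were -0.38 for the acute phase, -0.19 for complement, -0.40 for keratins and junctions, -0.40 for cytosolic heat shock, 0.26 for fatty acid uptake, 0.09 for the unfolded protein response and 0.05 for collagens. Next to the 4× medians of 0.16, 0.07, 0.05, -0.05, -0.11, -0.12 and 0.15, the sign differed for 5 of these 7 lists and was shared for heat shock and collagens. These 7 are a selection from 47 gene lists, and how many of the 47 shared the sign was not counted. Among the others, the median for cholesterol synthesis was 0.26 in the 4× and 0.28 in the 2× glands. Both were also positive for the IGF axis (0.14 and 0.03) and for fibroblasts (0.25 and 0.12). The signs differed for immediate-early factors (0.04 and -0.14), involution (0.10 and -0.12) and neutrophils (0.24 and -0.345). The differences between list medians were not tested.

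The study listed 75 probe sets whose difference between the milking frequencies changed from day 21 to day 23. They were chosen on these samples, so their counts are a description and not independent evidence. In the 4× glands alone, 60 had a positive change and 15 a negative one, 27 were higher and 6 lower at an unadjusted p under 0.01, and 3 passed the adjusted threshold by limma: LTF, THBS1 and SLC1A1. Their median change was 0.29 in the 4× glands and -0.82 in the 2× glands. Of the 61 probe sets in the largest of the study's 4 clusters, 56 were positive in the 4× glands with a median of 0.36, and all 61 were negative in the 2× glands with a median of -0.88. The cluster of 8 had medians of -0.22 in the 4× and 0.80 in the 2× glands, and the clusters of 3 had 0.42 and -0.78, and -0.66 and 0.42. The median change was thus larger in size in the 2× glands for 3 of the 4 clusters and in the 4× glands for the fourth, which holds LRP2 and MSTN.

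**Figure D4:**
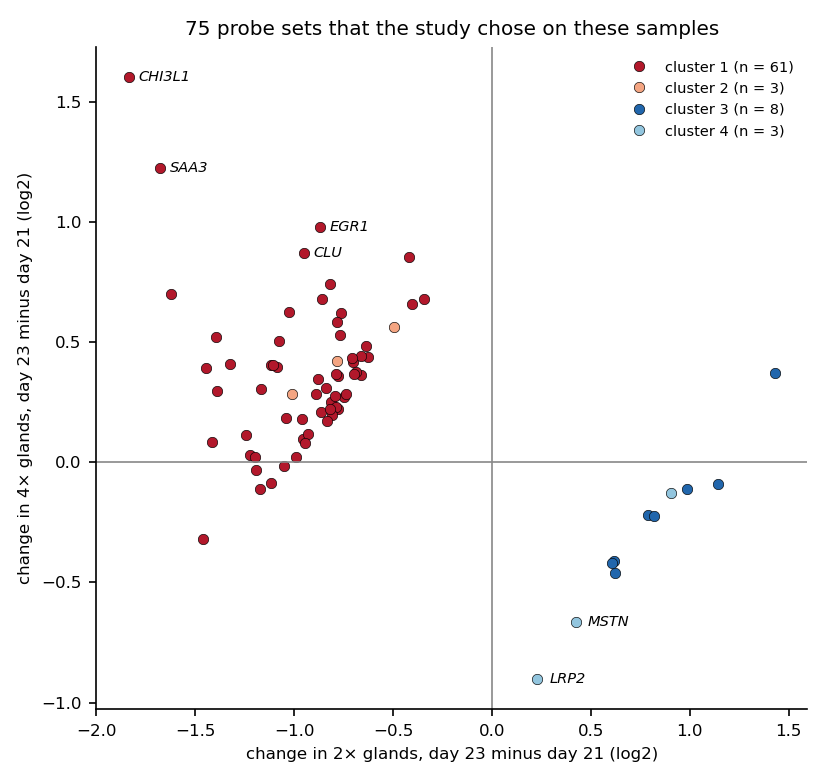
Change from day 21 to day 23 of the 75 probe sets that the study chose on these samples, in the 2× glands (log2, horizontal axis) and in the 4× glands (log2, vertical axis), means of 6 cows, colored by the study's cluster. Most points of cluster 1 lie at the upper left, with a median of -0.88 in the 2× and 0.36 in the 4× glands.

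Cow 3 differed from the other cows in many of these groups. Its mean change was -0.38 over the 61 probe sets of the largest cluster, -0.31 over complement, -0.24 over collagens and matrix and -0.57 over endothelial markers, while the other 5 cows had positive means for the first 3 of these and -0.02 to 0.28 for endothelium. For the unfolded protein response it had 0.21, against -0.36 to -0.07 in the other cows, and for the proteasome 0.28, against -0.11 to 0.08. The 8 probe sets that passed kept their direction in cow 3, with changes of 0.44 for LTF, 0.42 for S100A11 and 0.74 for CA8.

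With cow 3 left out, a choice made after seeing the data, 152 probe sets rose and 73 fell at a limma adjusted p under 0.05, and 722 (3.01%) and 489 (2.04%) passed an unadjusted p of 0.01. The 8 probe sets were all among those called. These shares are over all probe sets, whereas the lists hold 1 probe set per gene. Counts at an unadjusted p under 0.01 were then 11 of 21 for collagens and matrix, 6 of 16 for complement, 6 of 9 for fibroblast markers, 5 of 16 for keratins and junctions, 4 of 19 for immediate-early factors, 3 of 14 for involution, 2 of 15 for TGF-beta signaling, 4 of 17 for the acute phase and 3 of 12 for cholesterol synthesis. In this fit of 5 cows COL3A1 was higher by 0.70 (limma adjusted p = 0.001404), CLU by 1.07 (0.001412), IGFBP3 by 0.66 (0.001412), and SLC7A5 lower, with -0.55 (0.009427), all as limma adjusted p. The choice of cows therefore decided how many genes passed. None of the 95 named probe sets followed under the alternatives reversed its direction. Part of these 95 had been chosen for a small p and a direction shared by most cows, which made a reversal unlikely from the start. Other list members did reverse: acute phase genes with a positive change numbered 14 in 6 cows and 13 without cow 3.

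**Figure D5:**
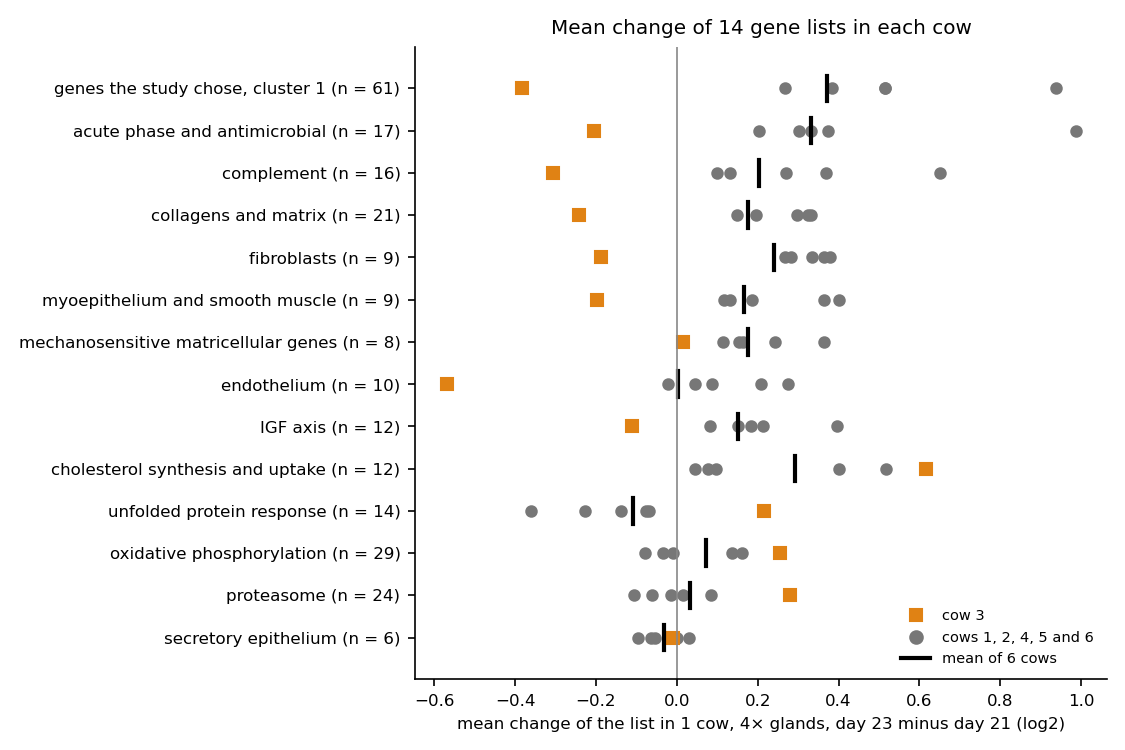
Mean change from day 21 to day 23 in the 4× glands (log2, horizontal axis) over the genes of 14 lists in each cow, with cow 3 as orange squares, the other 5 cows as gray circles and the mean of 6 cows as a bar; n is the number of probe sets. Cow 3 lies left of the other cows for the matrix, complement and endothelium lists and right of them for the unfolded protein response and the proteasome.

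Levels on day 40 in the rear 4× glands described where the genes stood later, without a test. Mean signals were 12.17 for LTF, 8.11 for the brighter THBS1 probe set that rose, 7.62 for SLC1A1, 9.53 for IGFBP3 and 10.83 for SLC7A5. The day 21 means were 11.63, 7.85, 7.34, 9.38 and 10.87, and those of day 23 were 12.31, 8.70, 7.997, 9.95 and 10.36. LTF thus lay nearer to day 23, while THBS1, SLC1A1, IGFBP3 and SLC7A5 lay nearer to day 21. The gland position of day 40 was that of day 21, and the milking frequency that of day 23. COL3A1, with a mean of 11.02 on day 40, and FDFT1, with 8.48, lay near their day 23 means of 11.05 and 8.57.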

How the data were processed

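The authors isolated total RNA from each biopsy with Trizol and RNeasy columns, hybridized it to 1 GeneChip Bovine Genome Array per biopsy, and corrected, normalized and summarized the probe signals by the Robust Multichip Average, whose version is not given in the sources used here. The deposited values were log2 signals of 24128 probe sets, of which 112 controls were left out. Of the 24016 tested, 7473 had a mean under 5 over the 12 arrays, close to background. The number of arrays limits the precision. Groups and cows were taken from the labels. Deviations from the group means correlated between the 2 arrays of a cow (0.447 to 0.663, 6 of 6 pairs), so cow was used as a block.

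Changes were fitted with limma 3.58.1 in R 4.3.3 (lmFit, eBayes, two-sided, Benjamini-Hochberg over all probe sets, threshold 0.05), on the 12 arrays of each milking frequency, and on 1 double difference per cow for the contrast of the 4× and 2× changes. Symbols came from the array's annotation (13292 probe sets with a single symbol, 86 with several, 10638 with none). A list was measured by the probe set with the highest mean for each gene. Named were the 15 higher and 15 lower genes with the smallest p, the 5 largest changes each way with an unadjusted p under 0.01, 3 members of each list, and the study's table; the first 2 sets needed a mean of at least 5 and 1 direction shared by 5 or more cows. Other list members given for their role, such as HP, STAT3 or FASN, and FDPS, COL6A1 and HOXA9 fall outside this rule and were chosen after their values were seen. The lists, genes and tests were chosen with earlier results of these data known. Alternatives were no block, a random block, all 36 arrays, tests without moderation, eBayes with a trend and robust prior, weighting of arrays, a filter on dim signals, reference scaling on 5 genes, median centring, 1 probe set per gene, controls kept, the mean of all probe sets of a gene for the lists, and each cow left out. The gene lists without cow 3, and under reference scaling, were added after seeing the data. The fits were tested on simulated data. Sequences were not analysed here. Plots were drawn with matplotlib 3.10.9 under Python 3.11.15, from tables read by numpy 2.4.6 and pandas 2.3.3.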

Additional observations from a re-analysis of the deposited data

Results flagged for a closer look

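Within the groups of 6 samples, 11 of 190 tested held a single gland set apart from the others by a gap, relative to the range, above Dixon's critical value; chance alone sets apart about 1 in 20 groups. On day 23, cow 1 had the highest levels of CHI3L1 (11.71, group median 8.23), CFI (7.80, median 6.04), CFB (7.71, median 6.60) and FOXQ1 (7.16, median 5.48). Cow 5 had the highest levels on that day of ACTA2 (12.19, median 11.45), DUSP1 (10.63, median 9.88), DNAJB9 (10.57, median 10.06) and GJB2 (6.93, median 6.17), and cow 6 the lowest level of the dimmer THBS1 probe set that rose (6.91, median 7.32). On day 21, cow 3 had the highest level of LGALS3 (8.44, median 7.57) and the lowest of OSGIN2 (7.77, median 8.93). No probe set passed the adjusted test of a difference between the 4× and 2× changes by limma, while 2093 had an unadjusted p under 0.05.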

How the results depend on the processing

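At a limma adjusted p under 0.05 the counts of 7 higher and 1 lower probe sets in the 4× glands became 0 and 0 with no replicate block, with cow as a random replicate block, with all 36 arrays sharing 1 spread and without moderation; 19 and 18 with array weights; 9 and 11 with trend and robust moderation; and 3 and 0 with 1 probe set per gene, where fewer probe sets were tested. Leaving out 1 cow gave 0 to 152 higher and 0 to 73 lower: 0 and 0 without cow 1, 4, 5 or 6, 5 and 0 without cow 2, and 152 and 73 without cow 3. All 8 probe sets kept their sign under every alternative that tested them. Most of these alternatives could not show a reversal. All 8 moved the same way in 6 of 6 cows, so leaving out 1 cow could not change the sign. A change of block, moderation or filter leaves the mean change as it is. In the leave-out fits of cows 1, 4, 5 and 6 the limma adjusted p of the 8 lay between 0.0627 and 0.1514. At an unadjusted p under 0.01 the 328 higher and 370 lower became 51 and 29 with no replicate block, 86 and 100 with all 36 arrays, 139 and 267 without moderation, 153 and 120 with 1 probe set per gene, and 175 to 722 and 214 to 489 with a cow left out. The 168 probe sets of the 2× glands became 90 with no replicate block, 1178 with all 36 arrays, 98 with reference scaling and 69 to 224 with a cow left out (101 without cow 1, 69 without cow 3). The 384 of the difference became 86 with no replicate block, 251 with reference scaling and 203 to 404 with a cow left out (203 without cow 3); its adjusted count was 0 to 1, the 1 without cow 1. The cause was not tested. Of 1584 values of 95 named probe sets under alternatives, 1438 kept direction and side of the threshold, 71 lost it, 75 gained it and 0 reversed. The lack of reversals is no independent evidence, as part of these probe sets had been chosen for a shared direction. Of 144 list medians under alternatives, 1 moved by at least 1 SD: that of the transporters, from -0.04 to 0.04 without cow 3. Reference scaling moved the median change of all probe sets by -0.0013.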

Other observations

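HOXA9, a homeobox gene that marks position along the body axis, was looked up after its values were seen. In the 4× glands its lowest, median and highest levels were 6.84, 7.65 and 9.31 on day 21, 6.66, 7.06 and 7.66 on day 23, and 6.80, 7.49 and 8.37 on day 40. The change from day 21 to day 23 was -0.74 (SE 0.19) in the 4× glands, lower in 4 of 6 cows, with a limma adjusted p of 0.2287. In the 2× glands it was -1.35 (SE 0.24), lower in 6 of 6 cows, with an unadjusted p of 0.0002509. Day 21 and day 40 were rear glands and day 23 fore glands, and the part of gland position in this or any other change was not tested.

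Among receptors and transcription factors of the study's table, chosen on these samples and picked here after their values were seen, several had positive changes in the 4× glands. KIT, a receptor tyrosine kinase of luminal progenitors, was 0.42 (SE 0.11) higher on the dim probe set of the study's table, with a median of 3.77 on day 21, and 0.17, 0.15 and 0.02 on the others. FOXQ1, a forkhead factor, was 0.52 (SE 0.14) higher in 5 of 6 cows, and TFCP2L1, another transcription factor, 0.25 (SE 0.08) in 5 of 6. The highest FOXQ1 level on day 23, 7.16 in cow 1, stood apart from the next at 5.71. In the list of luminal progenitor regulators, 3 of the 6 measured genes had positive changes and 3 negative, with a median of 0.04. KIT counted there by its brightest probe set, with 0.17.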
